A study of Mus musculus with 12 samples.

Results

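Endoplasmic reticulum (ER) chaperones are proteins that fold newly made secreted and membrane proteins in the ER, and the genes described here are Hspa5, Hsp90b1, Calr, Canx, Hyou1, Dnajb9, Dnajb11, Dnajc3, Sdf2l1 and Manf. These 10 genes of the 24296 gene symbols in the table were chosen from their levels in these same livers, where they were high in the model group and in part below the control group in the drug groups. Their levels and differences are therefore given as a description, without p-values. Where the number of them that passed the cutoffs of a fit of all genes is given, it stands beside the share of all genes and is not a test of them.

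Total RNA of 12 livers of male C57/BL6N mice was sequenced, with 3 livers in each of 4 groups. The control group is labelled WT, and the labels give no vehicle for it. The model group was injected with 5 mL/kg of a solution in olive oil of carbon tetrachloride (CCl4), a solvent that damages hepatocytes and leads to fibrosis, 2 times a week for 8 weeks. The drug groups had the same injections and, from week 5, also took silibinin, a flavonolignan of milk thistle, or phloridzin at its high dose, a glucoside of apple trees that inhibits sodium-glucose transporters. The question of the comparisons is how the livers with a drug stand against those with CCl4 alone and against the control livers. Values are fragments per kilobase of transcript per M fragments (FPKM) as deposited, summed over the transcripts of a gene. Libraries held 83.7 M to 111 M fragments, as recovered from the values, with group medians of 108 M in the control, 100.1 M in the model, 110.1 M in the silibinin and 102 M in the phloridzin group. The livers of a group are separate samples, and p-values measure the spread between these livers.

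The ER lumen is crowded with unfolded proteins in a secretory tissue such as liver. When unfolded proteins outnumber the chaperones, the sensors Ire1, Perk and Atf6 start the unfolded protein response, which slows translation and raises the transcription of chaperone genes. Many such genes carry the ER stress response element in their promoter, a pair of short boxes at a fixed distance that is bound by NF-Y together with Atf6 or Xbp1.

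The promoters of the genes were searched, after their values were seen, for that element and for 3 related motifs on both strands, in RefSeq windows of build GRCm38.p6 from 250 bases before to 50 bases after each RefSeq gene start. Windows were found for 8 of the 10 genes, all except Hyou1 and Manf. The ER stress response element, spelled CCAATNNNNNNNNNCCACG, was in the windows of 5 of these 8 genes (Hspa5, Hsp90b1, Calr, Canx and Dnajc3) and in 39 of all 32851 windows (0.119%). The ER stress response element II, ATTGGNCCACG, was in the window of Dnajb11 and in 12 of all windows (0.0365%). The unfolded protein response element TGACGTGG (222 windows, 0.676%) and the composite site ATTGCATCA (63 windows, 0.192%) were in no window of the 8 genes, so no match overlapped another motif. Dnajb9 and Sdf2l1 had a window with none of these letters. The window of Dnajb9 (chr12:44210019-44210318, minus strand) lies wholly inside the span given for that gene below. No base before the gene start of the deposited table was therefore searched for Dnajb9.

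The windows with a match are shown for the letters of these elements, with the match in capitals. Hspa5, Hsp90b1, Calr, Canx and Dnajc3 share the ER stress response element, and Dnajb11 holds the ER stress response element II. The 3 whole windows of 300 bases are those of Hspa5 (chr2:34771840-34772139, plus strand), Hsp90b1 (chr10:86705395-86705694, minus strand) and Calr (chr8:84846882-84847181, minus strand). For Canx (chr11:50325780-50325838, minus strand), Dnajc3 (chr14:118937807-118937865, plus strand) and Dnajb11 (chr16:22857832-22857882, plus strand), the match is shown with 20 bases on each side. All are written 5′ to 3′ along the gene.
Hspa5: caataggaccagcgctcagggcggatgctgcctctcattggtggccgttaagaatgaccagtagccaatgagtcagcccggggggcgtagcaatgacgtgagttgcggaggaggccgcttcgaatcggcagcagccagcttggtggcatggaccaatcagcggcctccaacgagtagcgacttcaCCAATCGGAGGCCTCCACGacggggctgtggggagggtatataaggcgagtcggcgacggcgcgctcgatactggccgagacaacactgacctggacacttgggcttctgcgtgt
Hsp90b1: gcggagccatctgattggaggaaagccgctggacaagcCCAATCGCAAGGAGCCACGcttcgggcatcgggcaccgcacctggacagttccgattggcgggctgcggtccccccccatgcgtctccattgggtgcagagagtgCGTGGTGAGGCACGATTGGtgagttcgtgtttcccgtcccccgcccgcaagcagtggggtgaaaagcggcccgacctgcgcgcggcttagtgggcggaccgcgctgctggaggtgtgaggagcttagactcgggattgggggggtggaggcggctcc
Calr: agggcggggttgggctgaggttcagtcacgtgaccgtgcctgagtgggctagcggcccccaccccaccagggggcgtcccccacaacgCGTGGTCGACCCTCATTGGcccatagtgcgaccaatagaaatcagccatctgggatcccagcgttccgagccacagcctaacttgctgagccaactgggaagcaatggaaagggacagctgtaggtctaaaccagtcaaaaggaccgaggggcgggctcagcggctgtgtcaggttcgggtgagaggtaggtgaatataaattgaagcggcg
Canx: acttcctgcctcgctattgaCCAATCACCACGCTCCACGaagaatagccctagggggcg
Dnajc3: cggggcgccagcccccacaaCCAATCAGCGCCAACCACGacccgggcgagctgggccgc
Dnajb11: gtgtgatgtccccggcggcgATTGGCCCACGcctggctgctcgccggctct
Hsp90b1 held 2 matches, and the second of them and the match of Calr read in the opposite orientation. In Hspa5, Hsp90b1, Calr, Canx and Dnajc3 the matches began between 65 and 212 bases before the RefSeq start, and in Dnajb11 the match lay after it. The RefSeq start can differ from the first base of the gene in the table, and the match of Hspa5 lies inside the span given for that gene below. A match is a description of letters and not a site in use.

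The first genes in order of role are the HSP70 and HSP90 proteins of the ER. Hspa5 (chr2:34771970-34777547 in build mm10) encodes BiP, the HSP70 protein that binds unfolded chains and keeps the sensors of the unfolded protein response inactive. It was at 129.6, 176 and 127 FPKM in the control livers, 471, 517 and 543 in the model livers, 84.0, 89.7 and 61.8 in the silibinin livers and 75.0, 83.9 and 77.3 in the phloridzin livers. Every model liver lay above every other liver, and each drug liver lay below each control liver. Group means were 144 ± 27.8 (SD, n = 3) in the control, 510.4 ± 36.3 in the model, 78.5 ± 14.7 in the silibinin and 78.8 ± 4.60 in the phloridzin group. The model mean was 3.54 times the control mean, and the silibinin and phloridzin means were 54.4% and 54.6% of it.

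Hsp90b1 (chr10:86690209-86705509) encodes Grp94, the HSP90 protein of the ER, which folds integrins and Toll-like receptors. It had the highest mean level of the 10 genes over the 12 livers. It was at 190.2, 208 and 212 FPKM in the control livers, 446, 574 and 498 in the model livers, 165, 147 and 140.4 in the silibinin livers and 183, 149 and 155 in the phloridzin livers. The order of groups was that of Hspa5 with smaller steps, and no drug liver reached the lowest control liver. The model mean was 2.49 times the control mean, and the silibinin and phloridzin means were 74.1% and 79.8% of it.

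Hyou1 (chr9:44379490-44392369) encodes Grp170, a large HSP70-related protein that exchanges the nucleotide of BiP. It was at 8.88, 7.10 and 9.70 FPKM in the control livers, 32.5, 64.6 and 32.1 in the model livers, 9.09, 8.15 and 9.48 in the silibinin livers and 3.26, 5.96 and 11.3 in the phloridzin livers. All model livers were above the others, with model liver 2 about as high as the other model livers together, while both drug groups overlapped the control group. Its log2 difference between model and control, 2.14 (SE 0.36), was the largest of the 10 genes. Log2 differences here and below are on the log2(FPKM + 1) scale, which understates the change of genes at low FPKM.

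Calr and Canx encode calreticulin and calnexin, the soluble and the membrane-bound lectin that hold glycoproteins with a trimmed sugar until they are folded. Calr (chr8:84841850-84846934) was at 71.4, 69.8 and 123 FPKM in the control livers, 131, 208 and 177 in the model livers, 35.0, 25.1 and 17.5 in the silibinin livers and 24.2, 24.4 and 41.4 in the phloridzin livers. Control liver 3 stood apart from the other control livers and came near the lowest model liver, and all drug livers were far below the controls. Silibinin and phloridzin means were 29.3% and 34.1% of the control mean, the lowest percentage of the 10 genes in the phloridzin group as well as the silibinin group.

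Canx (chr11:50293961-50325673) was at 64.6, 67.5 and 71.9 FPKM in the control livers, 83.3, 110.1 and 99.1 in the model livers, 63.5, 95.0 and 68.9 in the silibinin livers and 72.0, 62.7 and 56.8 in the phloridzin livers. The partner lectin thus differed little between groups, with silibinin liver 2 inside the model range and both drug groups overlapping the control group. Its log2 difference between model and control was 0.51 (SE 0.17), the smallest of the 10 genes and close to the median of all genes tested, 0.35.

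The ER DnaJ proteins hand substrates to BiP and start its ATP hydrolysis. Dnajb9 (chr12:44205559-44210326) encodes ERdj4, which also recruits BiP to the sensor Ire1, and was at 26.6, 35.8 and 23.9 FPKM in the control livers, 85.5, 107 and 94.3 in the model livers, 15.9, 23.6 and 19.1 in the silibinin livers and 21.7, 21.0 and 19.1 in the phloridzin livers. No group overlapped the model group, and each drug liver was below each control liver. Dnajc3 (chr14:118937976-118981697) encodes p58IPK, known as an inhibitor of Perk, and was at 59.5, 59.0 and 59.4 FPKM in the control livers, 115, 118 and 104 in the model livers, 39.0, 38.6 and 46.3 in the silibinin livers and 37.9, 40.2 and 39.2 in the phloridzin livers. It had the tightest control values, 59.3 ± 0.304 FPKM (SD, n = 3), and the drug groups lay below them at 41.3 ± 4.34 and 39.1 ± 1.17.

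Dnajb11 (chr16:22857845-22879634) encodes ERdj3, a soluble BiP cofactor that can be secreted with its substrate. It was at 2.94, 9.10 and 6.88 FPKM in the control livers, 5.99, 6.02 and 17.7 in the model livers, 2.04, 1.50 and 2.46 in the silibinin livers and 3.47, 7.44 and 2.30 in the phloridzin livers. This was the exception among the 10 genes in the model group, since 2 of the 3 model livers were inside the control range and the model mean rested on model liver 3. The silibinin livers were below all control livers, and the phloridzin livers were not. With the lowest mean level of the 10 genes, it also had the largest SE, as in its difference of 0.52 (SE 0.47) between model and control.

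Sdf2l1 and Manf encode small ER proteins that work with BiP. Sdf2l1 (chr16:17130140-17132383), which forms a complex with ER DnaJ proteins, was at 15.2, 21.8 and 22.6 FPKM in the control livers, 62.6, 67.1 and 67.7 in the model livers, 13.2, 8.11 and 9.90 in the silibinin livers and 10.7, 7.56 and 7.21 in the phloridzin livers. Manf (chr9:106838312-106891979), a secreted protein that stabilises BiP bound to its client, was at 31.2, 34.6 and 48.3 FPKM in the control livers, 115, 143 and 143 in the model livers, 20.4, 26.1 and 11.8 in the silibinin livers and 18.2, 15.5 and 22.9 in the phloridzin livers. In both genes the model livers were all above, and the drug livers all below, the control livers. Silibinin and phloridzin means were 52.3% and 42.8% of the control mean in Sdf2l1 and 51.1% and 49.6% in Manf.

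**Figure D1:**
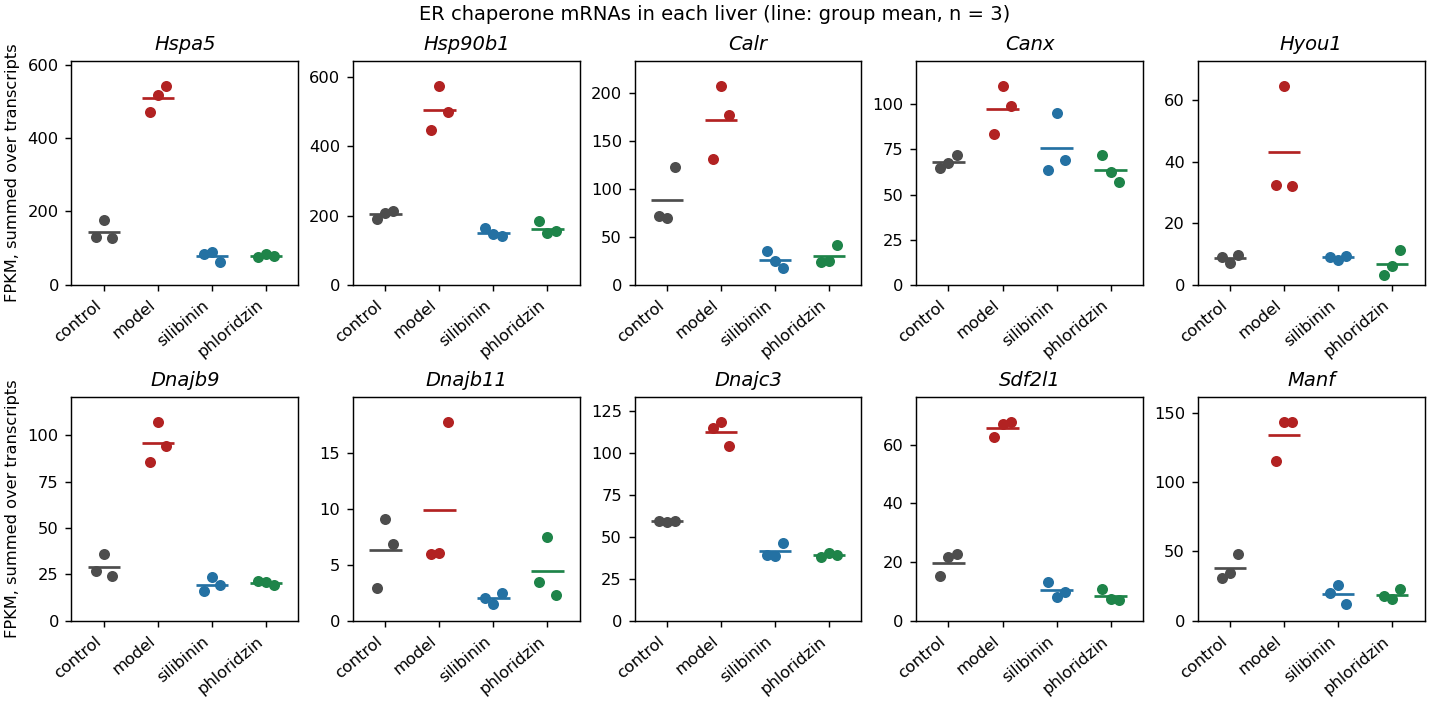
Summed FPKM (vertical axes, linear from 0) of the 10 ER chaperone genes in each of the 12 livers, by group (horizontal axes), with points for livers and lines for group means (n = 3). The model livers lie above the control livers in 9 genes, Dnajb11 being the exception, and the mean of Hspa5 is 510.4 FPKM in the model group against 78.5 and 78.8 in the drug groups.

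All 10 genes had a mean of at least 1 FPKM over the 12 livers and entered the limma fit of 11611 genes, in which a gene was called at an adjusted p under 0.05 and a log2 difference above 1 or below -1. Since the genes were chosen on these contrasts, nothing is read from their counts below. All model livers were above all control livers in 9 of the 10 genes, beside 45.1% of all genes tested, and 6 were called higher, beside 10.2%. These 6 were Hspa5, Hsp90b1, Hyou1, Dnajb9, Sdf2l1 and Manf, with log2 differences from 1.304 (Hsp90b1) to 2.14. The median log2 difference of the 10 genes was 1.50, beside 0.35 for all genes.

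In the silibinin group, all livers were below all model livers in 9 of the 10 genes (background 29.0%) and 9 were called lower (background 3.55%), with Canx outside both counts. In the phloridzin high-dose group the same counts were 9 (background 23.5%) and 8 (background 3.17%). Dnajb11 overlapped the model group there, and Canx and Dnajb11 were not called. The medians of the 10 genes were -2.16 and -2.33, beside -0.16 and -0.12 for all genes. The comparisons share the model livers, and those below share the control livers, so they are not independent of each other.

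Against the control group, all silibinin livers were lower in 8 of the 10 genes (background 4.07%), all except Canx and Hyou1. All phloridzin livers were lower in 7 (background 3.05%), with Dnajb11 overlapping as well. The medians were -0.70 and -0.52, where the medians of all genes were above 0, at 0.15 and 0.18. Passing the cutoffs were Calr in the silibinin group (1 of 10, background 0.241%), and Calr and Sdf2l1 in the phloridzin group (2 of 10, background 0.301%). The silibinin count moved with the livers used, and so did the number of all genes called lower, which was 28 of 11611 with all 12 livers. It was 0 without control liver 3 (beside 20 of all genes) or silibinin liver 2 (20), 2 without control liver 1 (24), 2 with the most abundant transcript alone (22 of 10291) and 3 with voom of limma on recovered fragment numbers (38 of 11605). The phloridzin count, beside 35 of all 11611 genes, was 1 without control liver 3 (29), phloridzin liver 1 (30) or phloridzin liver 2 (30), and 0 when only the 2 groups were fitted, where 12 of all genes were called lower. It was 3 without phloridzin liver 3 (40), with a pseudocount of 0.1 (43), with voom (40 of 11605) and with scaling to the sum of rows with a symbol (38 of 11617).

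The drug groups lay close to each other. Differences between phloridzin and silibinin ran from -0.47 (Hyou1, SE 0.36) to 0.75 (Dnajb11, SE 0.47), with a median of 0.01, and the groups overlapped in all 10 genes. The genes were chosen with both drug groups in view, so this does not show that the drugs act alike.

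**Figure D2:**
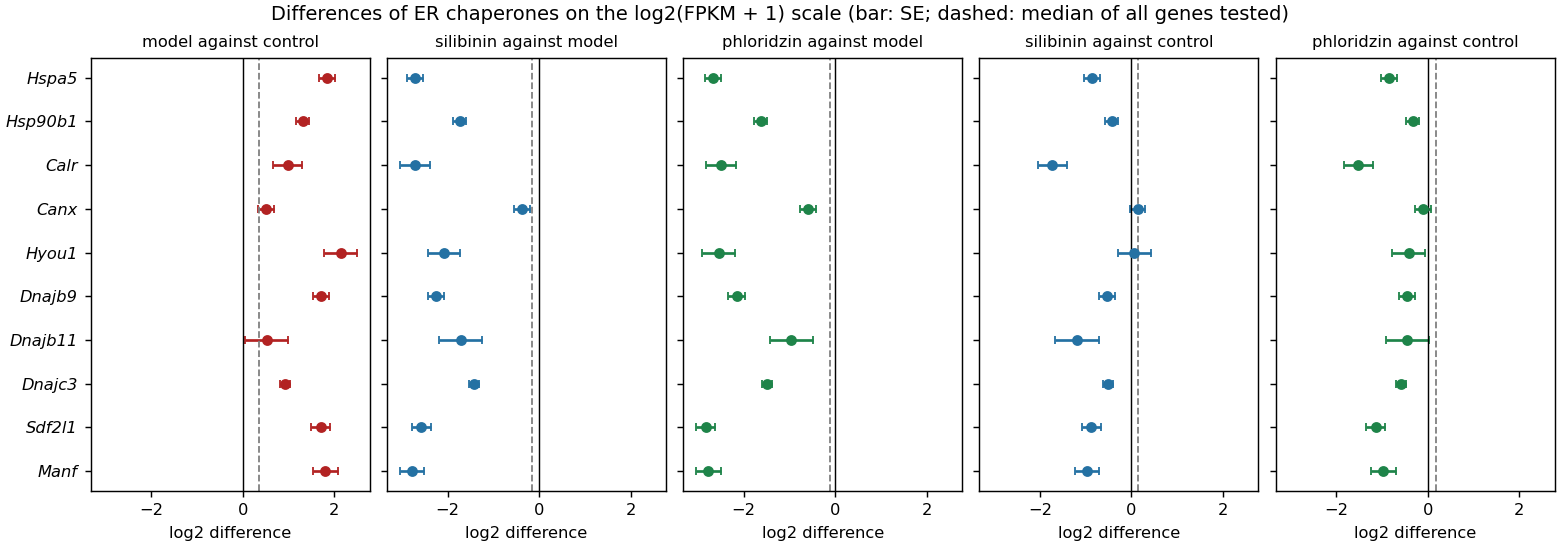
Log2 differences (horizontal axes, log2(FPKM + 1) scale) of the 10 ER chaperone genes in 5 comparisons, with points for estimates, bars for SE and a dashed line for the median of all genes tested. Differences from the model group reach -2.83 (Sdf2l1, phloridzin), while differences of the drug groups from the control group lie between -1.73 (Calr, silibinin) and 0.13 (Canx, silibinin), where Canx and Hyou1 go below 0 with median-ratio scaling.

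FPKM are not corrected for library composition, and this bears on the small differences from the control group. Scaling by median ratios moved the median of all genes by -0.38 between model and control, by 0.17 and 0.15 between the silibinin and phloridzin groups and the model, and by -0.21 and -0.23 between them and the control. Relative to the median of all genes tested, the 10 genes stood from 0.16 (Canx) to 1.79 (Hyou1) above it between model and control. Between silibinin and control they stood from -1.88 (Calr) to -0.02 (Canx), and between phloridzin and control from -1.70 (Calr) to -0.28 (Canx), so all 10 were below the median in both. The signs of Canx and Hyou1 between silibinin and control turned with this scaling, from 0.13 and 0.06 to -0.12 and -0.17. With it, 4 of the 10 genes were called lower than control in each drug group, beside 51 (silibinin) and 58 (phloridzin) of all 11529 genes tested.

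Whether the mix of transcripts changed was tested as the log2 ratio of the most abundant transcript to the others of its gene, with 1 FPKM added to each. The added 1 ties this ratio in part to the level of the gene, so the test is not fully apart from the sum. In Calr the leading transcript held 88.1% of FPKM in both the model and phloridzin groups, yet the log2 ratio differed by -0.31 (SE 0.30). Of the 10 genes, 7 could be tested; Dnajc3 and Sdf2l1 have 1 transcript row, and the second row of Dnajb9 is too low. Called by limma at an adjusted p under 0.05 were 0 of 7 between model and control, 0 of 7 between silibinin and model, and 0 of 7 between phloridzin and model, and 2, 0 and 0 had an unadjusted p under 0.05. The share of all 7895 genes tested that were called was 0.291%, 0.139% and 0.0633%. The 2 genes were Hspa5, whose leading transcript held 72.5% of its FPKM in the control and 60.3% in the model group (log2 ratio -0.76, SE 0.31, adjusted p = 0.38), and Hsp90b1, with 97.7% and 96.0% (log2 ratio -0.60, SE 0.25, adjusted p = 0.41).

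Some rows that are not in the sums lie inside the chaperone genes on the same strand. Rbm15b, a gene with its own symbol, lies within the span given for Manf and is named for this position. Its row was at 3.22, 8.88, 4.46 and 4.19 FPKM on average in control, model, silibinin and phloridzin livers, with 0.215% of its span in Manf exons. The NONCODE transcript NONMMUT009604.2 (chr11:50313367-50318445) lies wholly in introns of Canx, and was at 1.17, 1.02 and 0.977 FPKM in the control, 4.04, 3.62 and 3.18 in the model, 1.17, 1.22 and 0.701 in the silibinin and 0.761, 0.656 and 1.15 in the phloridzin livers. Its model livers were thus above all others, unlike the small change of Canx itself. A limma fit of 8508 NONCODE transcripts, added after these values were seen, gave a log2 difference of 1.16 between model and control, -1.19 between silibinin and model, and -1.32 between phloridzin and model.

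NONMMUT006694.2 (chr10:86692119-86693095) lies in Hsp90b1, with 26.2% of its span in exons, and was at 1.04, 1.29 and 1.52 FPKM in the control and 7.58, 6.86 and 5.60 in the model livers. In the silibinin livers it was at 1.60, 1.35 and 1.38 and in the phloridzin livers at 1.70, 0.794 and 1.11, near the control level. Its differences were 1.75, -1.64 and -1.82 in the same order. These 2 of the 4 NONCODE transcripts on the strand of a chaperone gene were called higher in the model (background 3.26%) and lower with each drug (background 1.03% for silibinin and 1.43% for phloridzin). The other 2, NONMMUT009602.2 and NONMMUT085180.1 at Canx, had model differences of 0.50 and 0.80, under the cutoff. Fragments of the host gene could be assigned to such rows, so they are not a separate measurement in full.

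The other genes of ER folding and quality control were taken from 7 lists with 109 genes, of which 101 were tested. Between model and control, 31 were called higher and 0 lower (background 10.2% and 1.15%), and 70 had an unadjusted p under 0.05 in either direction. With silibinin 31 were called lower than model and 0 higher (background 3.55% and 0.870%), and with phloridzin 34 lower and 0 higher (background 3.17% and 0.689%). At unadjusted p under 0.05 there were 66 and 67, and voom of limma called 0 lower in the model and 0 and 0 higher with the drugs. Between phloridzin and silibinin limma called 0 of 101 (background 0% higher and 0.0172% lower), 1 had an unadjusted p under 0.05, and voom called 0. With median-ratio scaling 12 were called higher and 2 lower in the model, and 20 lower with silibinin.

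Protein disulfide isomerases make and rearrange the disulfide bonds of secreted proteins. Of 19 tested, 3 were called higher in the model group (background 10.2%), and in 12 all model livers were above all control livers (background 45.1%). With silibinin and phloridzin 6 and 5 were called lower than model (background 3.55% and 3.17%), the 5 being Creld2, Ero1l, Pdia3, Pdia4 and Pdia6. In the counts per list below, rose and fell stand for limma calls in these comparisons, beside the same shares of all genes called. Creld2, an ER stress-induced protein with isomerase activity, was at 12.1 ± 3.83 (SD, n = 3), 61.3 ± 11.5, 4.12 ± 0.476 and 5.31 ± 0.399 FPKM in control, model, silibinin and phloridzin livers. It rose by 2.28 (SE 0.22, adjusted p = 0.0001) in the model and changed by -3.59 (SE 0.22, adjusted p = 1.1e-05) with silibinin and -3.29 (SE 0.22, adjusted p = 1.6e-05) with phloridzin. It was the 1 gene of the 7 lists called below control in both drug groups, at -1.31 (SE 0.22, adjusted p = 0.01) and -1.01 (SE 0.22, adjusted p = 0.022). Pdia6 went from 67.4 to 175 FPKM in the model (log2 difference 1.37, SE 0.20, adjusted p = 0.0007), and Ero1l, the oxidase that recharges the isomerases, from 6.76 to 17.1 (1.23, SE 0.12, adjusted p = 0.0001).

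Pdia4 fell from 198 FPKM in the model to 68.4 with silibinin and 66.7 with phloridzin, with 102 in the control group and log2 differences from the model of -1.51 (SE 0.12, adjusted p = 5.7e-05) and -1.55 (SE 0.12, adjusted p = 4.9e-05). P4hb, the most abundant isomerase, was at 441, 409 and 2.22 FPKM in the control livers, and was not called with these spread-out values (2.59, SE 1.48, adjusted p = 0.19). This difference rested on control liver 3, since control livers 1 and 2 lay inside the model range of 683, 631 and 294 FPKM. Qsox1, a thiol oxidase of the secretory pathway, was at 279.6 in the control and 156 in the model group (-0.83, SE 0.37, adjusted p = 0.1).

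Among other BiP partners, 2 of 10 rose in the model, and 1 fell with each drug. Voom called 2 lower with silibinin and 1 with phloridzin. Hspa13, a small HSP70 protein of microsomes, was at 20.1, 21.2 and 17.0 FPKM in the control livers, 55.2, 47.0 and 45.5 in the model livers, 11.7, 12.9 and 11.3 in the silibinin livers and 15.0, 11.9 and 11.1 in the phloridzin livers. Its model mean was 2.54 times the control mean (SE of log2 0.14, adjusted p = 0.00019 by limma), and log2 differences were -1.95 (SE 0.14, adjusted p = 3.3e-05) and -1.88 (SE 0.14, adjusted p = 4e-05) with the drugs. Dnajc10, a DnaJ protein that reduces disulfides, rose in the model to 2.57 times the control mean (SE of log2 0.20, adjusted p = 0.0009). The membrane protein Dnajb12 was at 19.0 in the control and 21.1 FPKM in the model group.

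Of 9 genes of glycoprotein folding and export, limma and voom each called 0 in the model, and 5 had an unadjusted p under 0.05. With silibinin 2 were called lower than model, Lman1 (-1.20, SE 0.18, adjusted p = 0.0021), a cargo receptor for coagulation factors, and Mogs (-1.06, SE 0.12, adjusted p = 0.00032), which trims the first glucose. With phloridzin Mogs alone was called by limma (-1.12, SE 0.12, adjusted p = 0.00025). Voom called 2 of the 9 lower with silibinin and 2 with phloridzin. Of 12 prolyl isomerases and collagen chaperones, 4 rose in the model (Fkbp11, P4ha1, Ppic and Serpinh1), 1 fell with silibinin (Fkbp11) and 2 with phloridzin (Fkbp11 and Fkbp14). Voom called 6 of the 12 higher in the model, 4 lower with silibinin and 3 lower with phloridzin. Fkbp11 went from 5.57 to 33.7 FPKM and to 4.95 and 5.24 with the drugs.

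Of the 4 that rose, P4ha1, the collagen chaperone Serpinh1 (Hsp47) and the cyclophilin Ppic were not called lower with either drug by limma. P4ha1 was at 2.43, 2.75 and 3.50 FPKM in the control livers, 7.28, 8.08 and 9.18 in the model livers, 3.49, 4.23 and 3.08 in the silibinin livers and 5.48, 5.09 and 3.26 in the phloridzin livers, with each drug liver below each model liver. Serpinh1 was at 1.95, 8.93, 6.16 and 10.1 FPKM on average in control, model, silibinin and phloridzin livers, and its difference was 1.72 (SE 0.32, adjusted p = 0.0025) in the model, -0.47 (SE 0.32, adjusted p = 0.36) with silibinin and 0.11 (SE 0.32, adjusted p = 0.85) with phloridzin. Ppic was at 1.26, 6.76, 5.92 and 6.55 FPKM. Against control, Ppic was the 1 gene of the 7 lists called higher with silibinin (1.56, SE 0.28, adjusted p = 0.014, background 1.90%), and Ppic (1.70, SE 0.28, adjusted p = 0.0081) and Serpinh1 (1.83, SE 0.32, adjusted p = 0.0093) were the 2 called higher with phloridzin (background 3.01%). Whether these genes differed from the chaperones in their response was not tested. By voom, 2 of the 12 prolyl isomerases and collagen chaperones were called higher than control with silibinin and 3 with phloridzin. Without control liver 1, silibinin liver 1 or silibinin liver 2, 1 and not 2 genes of the lists were called between silibinin and control. Beside this, 108, 80 and 78 of all genes were called higher, where 221 were with all 12 livers. When only the phloridzin and control groups were fitted by limma, 1 gene of the lists was called higher and 0 lower (beside 104 and 12 of all genes), so the call of Creld2 against control did not hold there, and at most 1 of those of Ppic and Serpinh1 did.

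Of 14 sensors and transcription factors of the unfolded protein response, 8 rose in the model, and 5 (Atf6, Ddit3, Eif2ak3, Ppp1r15a and Trib3) and 7 fell with silibinin and phloridzin. Voom called 7 higher in the model, and 8 and 7 lower with silibinin and phloridzin. Ddit3 (CHOP), a factor linked to cell death under ER stress, was at 0.702, 0.991 and 1.27 FPKM in the control and 4.58, 31.1 and 42.0 in the model livers. It was at 0.754, 1.57 and 1.17 in the silibinin and 1.24, 1.84 and 1.07 in the phloridzin livers, near the control level and with no overlap with the model. Trib3, a target of Atf4 and CHOP, had differences of 3.27 (SE 0.21, adjusted p = 1e-05), -3.53 (SE 0.21, adjusted p = 1.1e-05) and -3.32 (SE 0.21, adjusted p = 1.6e-05) for model against control and each drug against model. Ppp1r15a (Gadd34), which restores translation, rose by 1.78 (SE 0.20, adjusted p = 0.00019), and Atf4 by 1.33 (SE 0.29, adjusted p = 0.0059). Xbp1, whose mRNA is spliced by Ire1, was at 29.2 in the control and 47.1 in the model group (0.58, SE 0.29, adjusted p = 0.14). Creb3l3, a liver factor cleaved under ER stress, was at 108 ± 2.92 FPKM (SD, n = 3) in the control and 67.9 ± 6.11 in the model group, a difference of -0.66 (SE 0.11, adjusted p = 0.0013) in the opposite direction, below the cutoff for a call.

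ER-associated degradation removes chains that fail to fold. Of 22 genes, 8 rose in the model, and 8 and 11 fell with silibinin and phloridzin. Syvn1 (Hrd1), the ubiquitin ligase of the pathway, was at 5.44, 42.9, 5.32 and 4.91 FPKM in control, model, silibinin and phloridzin livers (2.79, SE 0.46, adjusted p = 0.0014 in the model). Its partner Sel1l was at 39.0, 84.6, 34.2 and 30.1 (1.10, SE 0.11, adjusted p = 0.00013), and Derl3, a channel component, rose by 2.09 (SE 0.20, adjusted p = 0.00012). Derl3 was at 0.930, 7.41, 0.626 and 0.480 FPKM in control, model, silibinin and phloridzin livers. It passed the filter of 1 FPKM only through the model group, which favoured its calls.

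Of 15 genes of translocation into the ER, 6 rose in the model, and 8 and 7 fell with the drugs. Sec61a1, the pore of the translocon, was at 66.9, 57.8 and 68.4 FPKM in the control and 198, 174 and 183 in the model livers, and at 62.4 and 55.3 on average with silibinin and phloridzin. Srprb, a subunit of the signal recognition particle receptor, had differences of 1.81 (SE 0.13, adjusted p = 1.9e-05), -2.07 (SE 0.13, adjusted p = 1.2e-05) and -2.00 (SE 0.13, adjusted p = 1.6e-05) for model against control and each drug against model. The drug means of both genes were near the control means and were not called against them.

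Chaperones of other compartments were taken for comparison. Of 20 cytosolic chaperones, 8 rose in the model, and 6 and 5 fell with silibinin and phloridzin, the 5 being Hspa1b, Hspa4l, Hsph1, Hspb1 and Hspb8. The stress-induced Hspa1b had log2 differences of 3.49 (SE 0.37, adjusted p = 0.00017) for model against control, -2.92 (SE 0.37, adjusted p = 0.00074) for silibinin against model and -2.85 (SE 0.37, adjusted p = 0.0009) for phloridzin against model. For Hspb1 they were 3.27 (SE 0.29, adjusted p = 7.9e-05), -3.91 (SE 0.29, adjusted p = 3.9e-05) and -3.61 (SE 0.29, adjusted p = 5.6e-05). Bag3 was at 0.0288 FPKM in control liver 2 and at up to 4.30 in the other control livers, which were far above it, and at 12.9, 18.5 and 14.7 in the model livers, 4.10, 5.54 and 4.24 in the silibinin livers and 5.17, 6.26 and 5.54 in the phloridzin livers. Its log2 difference was 2.43 (SE 0.50, adjusted p = 0.0045) in the model, and the drug livers were all below the model livers without a call, at -1.54 (SE 0.50, adjusted p = 0.064) with silibinin and -1.29 (SE 0.50, adjusted p = 0.12) with phloridzin. The abundant Hsp90ab1 was at 161 in the control and 274 FPKM in the model group. Of 8 mitochondrial chaperones, limma and voom each called 0 in the model and with either drug, and 3, 4 and 3 had an unadjusted p under 0.05. Hspa9, the HSP70 of mitochondria, was at 118, 201, 127 and 139 FPKM.

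**Figure D3:**
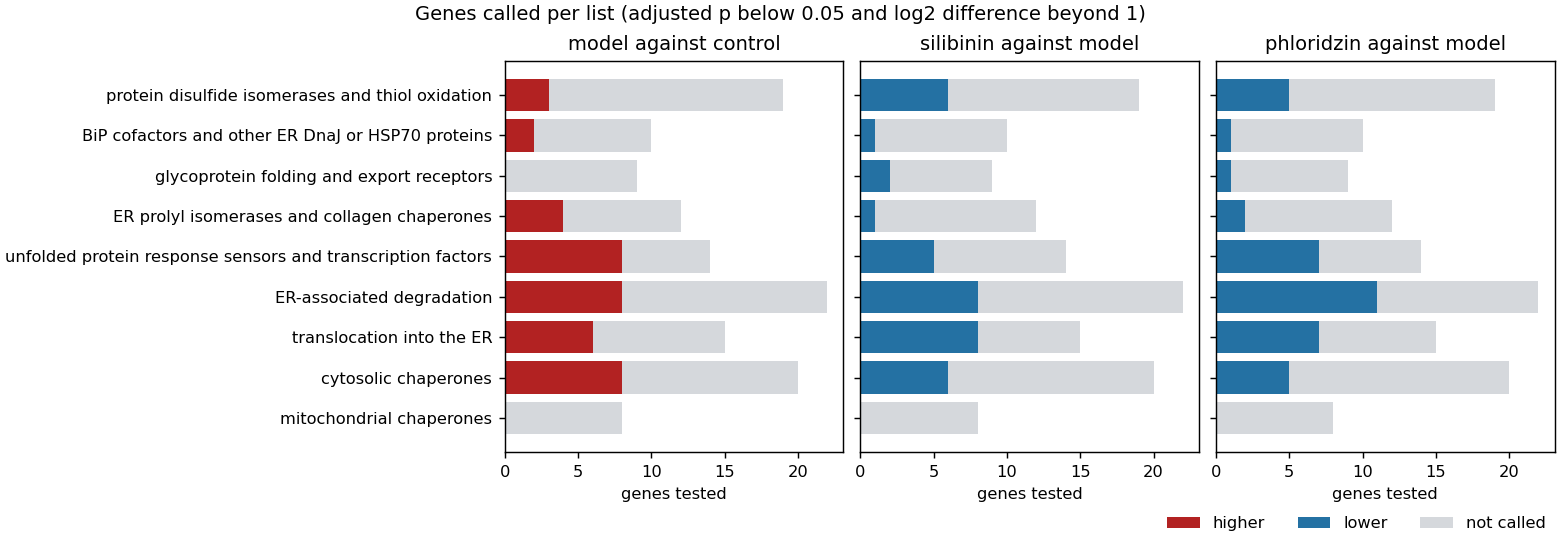
Number of tested genes (horizontal axes) called higher (red), called lower (blue) or not called (grey) in each list for model against control, silibinin against model and phloridzin against model. The list of ER-associated degradation has 8 genes higher in the model and 8 and 11 lower with silibinin and phloridzin, and the mitochondrial chaperones have none in any of these comparisons.

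The promoter element groups genes by letters and not by level, although it was searched after the values were seen. Besides the chaperones, 32 genes had the ER stress response element in a window, and 11 of them were tested. Between model and control, 6 of the 11 were called higher (background 10.2%): Creld2, Derl3, Pdia6, Syvn1, Acnat2 (log2 difference 1.97) and Spats2l (1.12). The first 4 of these, which are on the ER lists, were also called lower with each drug (4 of 11, background 3.55% and 3.17%). The other 5 were Acacb, Adcy3, Alg12, Ero1b and Pan2. Derl3 passed the filter of 1 FPKM only through the model group, being under 1 FPKM on average in each other group. The filter thus favoured its calls in these counts. Of 8 other genes tested with the ER stress response element II, 1 was called higher in the model (Rbm39, 1.34), and Herpud1, an ER membrane protein of the degradation pathway, was called lower with phloridzin (-1.15). Genes other than those on the lists were named here after their values were seen.

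Genes most like the chaperones over the livers were found by Pearson's r with the mean of their standardised log2 values (n = 12 livers that share the 4 groups). Among the highest were Creld2 (r = 0.990), Pdia4, Tmem248, Gm25745, Pdia3, Sel1l, Wfs1, Adamts1 and Dpagt1 (r = 0.968), and 4 of them are on the ER lists. Wfs1, which encodes the ER membrane protein wolframin, was at 2.68, 7.78, 2.27 and 1.91 FPKM in control, model, silibinin and phloridzin livers. Dpagt1, the enzyme of the first step of N-glycan assembly, was at 9.96, 17.8, 8.54 and 8.89. Gm25745 is a small RNA of 133 bases (chr10:86705316-86705448) wholly within exon sequence of Hsp90b1, so its fragments cannot be told apart from those of that gene.

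Liver holds several cell types, and in bulk RNA fewer cells of a type and less RNA per cell cannot be told apart. Of the hepatocyte markers 10 of 10 were detected, with Alb the most abundant, and their summed FPKM was 19004, 24443 and 19042 in the control, 17617, 25796 and 29209.7 in the model, 30289, 35326 and 20500.2 in the silibinin and 23100.2, 31055 and 23634 in the phloridzin livers. In the model 1 of the 10 markers was called, Cyp2e1, the enzyme that activates CCl4, which fell from 2812 to 504 FPKM (-2.35, SE 0.39, adjusted p = 0.0014). Silibinin against model gave 1 call, Serpina1b higher, and phloridzin against model 0 (2 with an unadjusted p under 0.05, 0 with voom). Cyp2e1 was at 1108 with silibinin and 442 with phloridzin.

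Stellate cell or myofibroblast markers (10 genes, all detected, Dcn the most abundant) summed to 75.0, 69.2 and 78.6 FPKM in the control and 227, 224 and 255 in the model livers. The sum stayed above the controls in the drug groups, at 228, 260.2 and 121 with silibinin and 314, 181 and 157 with phloridzin. In the model 5 of 9 tested rose (Col1a1, Col1a2, Col3a1, Lrat and Tagln), with 4.35 (SE 0.57, adjusted p = 0.00041) in Col1a1, and 0 of 9 were called between either drug and model, where 1 had an unadjusted p under 0.05 in each and voom called 0. Macrophage markers (7 genes, Lyz2 the most abundant) summed to 68.7, 125 and 115 in the control, 267, 402 and 392 in the model, 349.7, 426 and 263 in the silibinin and 493, 436 and 226 in the phloridzin livers, with 3 of 6 called higher in the model (Gpnmb, Lyz2 and Trem2) and 0 called, by limma or voom, and 0 with an unadjusted p under 0.05, between either drug and model. Both lists had calls between control and model and none between either drug and model, and whether they differed from the chaperones was not tested. All silibinin livers were below all model livers in 2 of the 9 stellate cell and 1 of the 6 macrophage markers (background 29.0%). For phloridzin these were 1 and 0 (background 23.5%).

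Plasma cells, which carry much ER, had 7 markers that summed to 33.8, 89.4 and 114 FPKM in the control, 105, 175 and 108 in the model, 61.2, 72.4 and 149 in the silibinin and 94.7, 40.4 and 153 in the phloridzin livers. Sdc1, with a mean of 69.9 FPKM in the control, made up most of the mean sum in the control group but not in the model group, where its mean was 57.7, and is also made by hepatocytes, and Tnfrsf17 was at 0 in all control livers and at 0.0797 FPKM on average in the model group. Igkc was at 5.21, 42.5, 22.0 and 20.6 FPKM on average in control, model, silibinin and phloridzin livers, and Igha at 2.07, 16.3, 7.40 and 10.2. The median log2 difference of the 5 markers tested was 1.81 for model against control, -0.91 for silibinin against model and -0.62 for phloridzin against model, beside 0.35, -0.16 and -0.12 for all genes, with the same signs as the chaperones. Against control the marker medians were 1.49 with silibinin and 1.58 with phloridzin, beside 0.15 and 0.18 for all genes. There the signs were opposite to those of the chaperones, whose medians were -0.70 and -0.52. Limma called 2 and 1 of the 5 markers higher than control with silibinin and phloridzin, and voom 0 and 1. Igkc, Igha and Jchain were the 3 of 5 tested that rose in the model, and 0 were called between either drug and model, where 1 and 0 had an unadjusted p under 0.05 and voom called 0.

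Other cell types had lower mean sums. The 4 B cell markers (Cd79b the most abundant) summed to 0.866, 1.95 and 2.14 FPKM in the control, 3.42, 4.33 and 3.77 in the model, 4.13, 5.67 and 3.04 in the silibinin and 5.48, 3.63 and 2.72 in the phloridzin livers. The 4 T cell markers (Cd3e the most abundant) summed to 1.12 to 1.75 FPKM in the control, 1.83, 2.88 and 3.49 in the model, 1.36, 2.37 and 2.31 in the silibinin and 5.08, 1.82 and 2.33 in the phloridzin livers. The 4 endothelial markers (Lyve1 the most abundant) summed to 16.4, 15.7 and 23.6 FPKM in the control, 27.9, 33.3 and 26.1 in the model, 19.4, 30.4 and 10.8 in the silibinin and 25.2, 40.7 and 28.3 in the phloridzin livers. All 4 T cell markers were under a mean of 1 FPKM and were not tested. The 4 cholangiocyte markers (Sox9 the most abundant) summed to 1.76, 2.98 and 2.18 in the control, 3.93, 5.69 and 4.64 in the model, 4.55, 3.76 and 7.03 in the silibinin and 6.00, 4.74 and 7.38 in the phloridzin livers. The 3 neutrophil markers (S100a8 the most abundant) summed to 17.3, 6.31 and 18.8 in the control, 21.8, 60.8 and 35.8 in the model, 14.4, 21.5 and 7.75 in the silibinin and 16.8, 73.0 and 34.3 in the phloridzin livers. Of 1 B cell, 4 endothelial, 2 cholangiocyte and 2 neutrophil markers tested, limma called 0 in the model, 0, 1, 1 and 1 had an unadjusted p under 0.05, and voom called 0, 0, 1 and 0. The neutrophil median was 1.62 in the model, and -1.36 for silibinin and -0.42 for phloridzin against model, with the signs of the chaperones. Against control it was 0.26 and 1.20, with the opposite signs. Limma called 1 cholangiocyte marker higher with phloridzin against control. The part of these cell types in the chaperone levels was not tested.

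**Figure D4:**
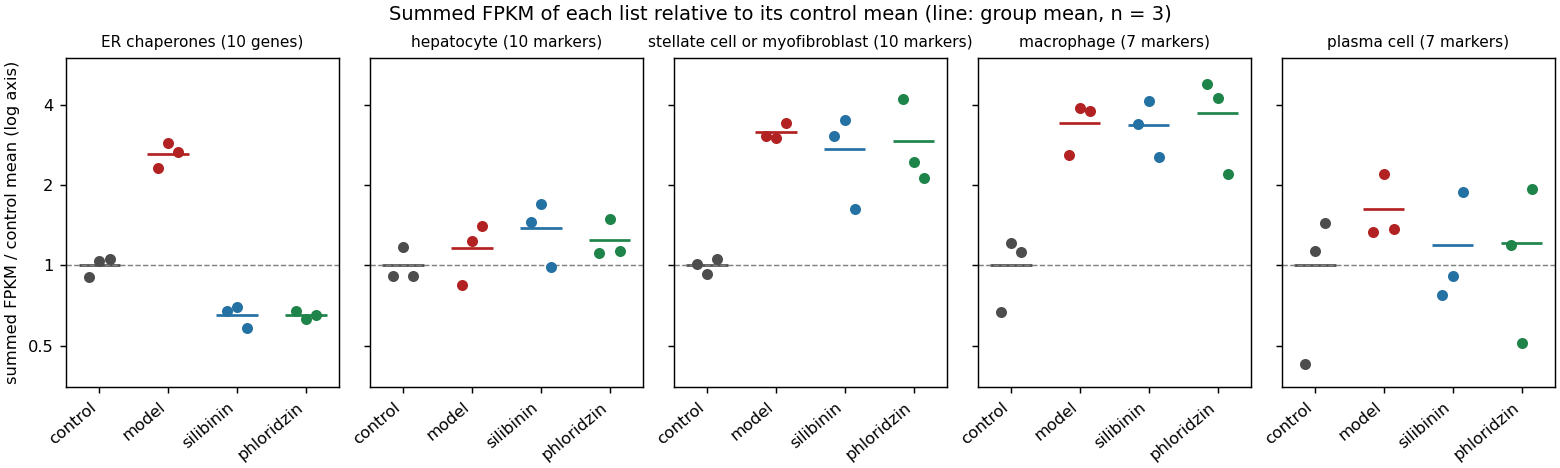
Summed FPKM of the 10 ER chaperones and of 4 marker lists in each liver, divided by the mean of the control livers (vertical axis, log scale), with points for livers and lines for group means (n = 3). The chaperone sum averages 2.63 times control in the model and 0.651 and 0.652 with silibinin and phloridzin, while the macrophage sum stays at 3.36 and 3.74.

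A technical value also moved with the control group. Assembled rows without a gene or position held 25.5%, 29.8% and 29.8% of all FPKM in the control livers, 21.0%, 19.6% and 20.4% in the model, 20.3%, 19.4% and 21.3% in the silibinin and 19.9% to 20.4% in the phloridzin livers. Fragments placed there are counted in no gene, and their part in the differences from control was not tested. The model livers, the silibinin livers and the phloridzin livers had similar shares.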

How the data were processed

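Total RNA of 12 livers was sequenced, and the authors deposited FPKM for 169430 transcript rows, scaled by transcript length and library size. Per the labels, the submitters' processing notes name bcl2fastq, FastQC 0.11.5, HISAT2 2.1.0, StringTie 1.3.3b and DESeq 1.28.0 with build mm10. The unit was read from the values, since FPKM times length was a whole multiple of a step per liver (within 0.1 in 98.6% to 99.0% of low values of transcripts of at least 1500 bases), which gave the fragment numbers. FPKM were summed per symbol over the 82136 Ensembl rows. Genes with a mean of at least 1 FPKM were tested by limma 3.58.1 (R 4.3.3) with a variance trend on log2(FPKM + 1), in a single fit of the 12 livers, with Benjamini-Hochberg adjustment over all genes tested and two-sided p-values. Genes were called at an adjusted p under 0.05 and a log2 difference beyond 1. Transcript balance was tested in genes with at least 2 rows and a mean of at least 0.5 FPKM in the other rows. NONCODE transcripts with a mean of at least 0.5 FPKM were fitted apart, in a test added after values were seen. The fit was also run on simulated data, whose outcome is not given here, and nothing is read from it.

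The members and the gene lists were chosen with earlier results of these data known. Named are the members, up to 3 called genes per list and comparison with the largest differences, abundant genes of each list, genes most like the members, and markers. Alternatives covered the filter, the pseudocount, the scaling, the groups in the fit, the rows summed, voom of limma, the replicate number as a block and each liver left out. Positions are those of the deposited table, exons those of GENCODE M21, and promoters those of RefSeq. Figures were drawn with Python 3.11.15 and matplotlib 3.10.9, and tables read with pandas 2.3.3 and numpy 2.4.6.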

Additional observations from a re-analysis of the deposited data

How the results depend on the processing

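The direction of each median difference of the ER chaperones was kept under every alternative for the model against control and for each drug against model or control, with ranges outside single-liver removal of 1.03 to 1.58, -2.35 to -1.94, -2.46 to -2.14, -0.95 to -0.70 and -0.81 to -0.52. The lowest value for model against control, 1.03, came with median-ratio scaling, which removes the median shift of all genes. With this scaling the chaperones called against control were 4 with silibinin and 4 with phloridzin, beside 51 and 58 of all 11529 genes lower, and the other ER genes called were 14 in the model, where 454 of all genes were higher and 470 lower, and 20 with silibinin, where 226 of all genes were lower. The share of calls over all genes that were higher went from 89.8% to 49.1% in the model, from 19.7% to 45.7% and from 17.9% to 38.4% for silibinin and phloridzin against model, and from 88.8% to 73.2% and from 90.9% to 74.3% against control. Without the log2 cutoff, the other ER genes called were 65 in the model, 56 with silibinin and 52 with phloridzin against model, and 6 and 6 against control, and 4 and 4 chaperones were called lower than control, beside 51 and 56 of all 11611 genes. Over all genes, 3656 were then called higher and 465 lower in the model. Against model, 342 were higher and 1473 lower with silibinin, and 335 higher and 1315 lower with phloridzin. Against control, 517 and 868 of all genes were called higher with silibinin and phloridzin. Between phloridzin and control, 0 chaperones and 1 other ER gene were called when only the 2 groups were fitted, beside 104 of all genes higher and 12 lower (with all groups 350 and 35). For silibinin against control, 4 other ER genes were called with a pseudocount of 0.1 (beside 581 of all 11611 genes higher and 39 lower). In this comparison 2 chaperones were called with the most abundant row alone (beside 22 of all 10291 genes lower) and 3 with voom (beside 38 of 11605). The most abundant row alone also gave 20 other ER genes in the model, beside 769 of all 10291 genes higher and 128 lower. With all rows summed these were 1183 and 134 of 11611. The cause of these changes was not tested. With 1 liver left out at a time, the chaperones called were 0 to 2 for silibinin and 1 to 3 for phloridzin against control, beside 18 to 38 and 25 to 40 of all genes lower, and the other ER genes 1 to 3 and 2 to 4. In the same fits, 78 to 349 and 185 to 553 of all genes were called higher than control with silibinin and phloridzin. The ranges for model against control, silibinin against model and phloridzin against model were 6 to 7, 8 to 9 and 8 to 8 chaperones, and 29 to 33, 27 to 35 and 30 to 40 other ER genes, beside 1079 to 1248 of all genes higher and 345 to 427 and 305 to 504 lower. Scaling to the sum of rows with a symbol, chosen after seeing the data, changed no count by more than 1.5 times. Livers share only a number across groups: deviations of same-numbered livers correlated between -0.09 and 0.10, and 2 of 12 livers correlated best with their own number. With the replicate number as a block, the chaperones called were 6 in the model, 9 and 8 against model, and 1 and 2 against control, as without it. Beside them, 1170 of all 11611 genes were called higher in the model. With silibinin and phloridzin, 402 and 362 of all genes were called lower than model, and 27 and 30 lower than control. Genes near 1 FPKM, such as Ddit3 in controls, are limited by depth and by the pseudocount.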
